A study of Caenorhabditis elegans with 8 samples.

Results

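The data describe how the effect of a mir-83 mutation on gene expression in whole Caenorhabditis elegans differed between a younger and an older adult age. For each gene, the log2 ratio of mutant to wild type at day 12 minus the same ratio at day 4, called here the difference of differences, was taken over all 4 sample groups, within each replicate and combined over both. A positive value means that the mutant stood relatively higher at day 12 than at day 4. The same number is the change with age in the mutant minus the change with age in wild type. Of 18286 genes found in the tables of both replicates, 15842 had enough reads to be tested.

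The wild type was N2, and the mutant strain, MT15501, carries a mutation of mir-83. Worms were taken at adult day 4, called young here, and adult day 12, called old, with 2 libraries in each of the 4 groups. All groups grew at 20 °C on plates with FuDR, a drug that stops cell division and so keeps adults from producing progeny, and RNA came from whole worms. Deposited depth ran from 20270542 to 41181094 reads per library. Levels below are read counts per library size (CPM) scaled by TMM factors, which correct for a few abundant genes taking up reads. Those factors were 0.644 and 0.596 in the young mutant libraries and between 1.08 and 1.23 in the others.

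MicroRNAs are short RNAs that guide Argonaute proteins to matching sites in messenger RNAs and lower their stability or translation. Loss of a microRNA can raise its direct targets, and many other genes can follow indirectly. The comparison asks whether the consequences of losing miR-83 depend on adult age. In an adult worm the intestine makes yolk protein, the gonad makes oocytes and early embryos, and the body wall and pharynx hold most of the muscle. In whole-worm RNA, fewer cells of a type and less RNA per cell cannot be told apart.

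The strains differed more at day 4 than at day 12. Over genes, the day 4 effect of the mutation had an SD of 1.39 and 1.33 on the log2 scale in the 2 replicates, and the day 12 effect 0.74 and 1.11. In the fit over both replicates these SDs were 1.59 and 0.62, the latter averaging day 12 effects that were negatively correlated between the replicates. No gene passed an adjusted p of 0.05 for the difference of differences in edgeR's quasi-likelihood test with Benjamini-Hochberg adjustment, which is 0% of the genes tested in either direction. The smallest adjusted p was 0.0549 and was shared by 46 genes. At an unadjusted p under 0.05, 1314 genes (8.29%) had a positive and 1597 (10.1%) a negative difference of differences. DESeq2 called 594 higher and 731 lower at an adjusted p under 0.05.

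These 2911 genes are used below as a description, since they did not pass the adjustment. Among them, 95.5% had a larger effect at day 4 than at day 12, against 76.4% of all genes tested. The young mutant was the group furthest from the other 3 in 84.9% of the positive genes and 72.3% of the negative ones, against 55.8% of all genes. The genes were selected on the difference between the ages, so a part of these excesses over all genes follows from the selection. The fitted day 12 effects behind the 95.5% and 76.4% also average replicates that were negatively correlated. With plain library sizes in place of TMM, 4264 genes were positive and 441 negative at the same p, and the median over all genes moved from 0.08 to 0.95. Where the median given for a gene group changes sign under that scaling, this is stated beside it, and the turned value stayed under the median of all genes. Each count of a gene group at that p is to be read against the 8.29% positive and 10.1% negative of all genes. In the most abundant quintile of genes, 7.73% were positive and 25.7% negative. The quintiles were set by the mean level over all 8 libraries. A gene high in the young mutant alone is raised in that mean, so a part of this tilt can follow from the grouping.

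**Figure D1:**
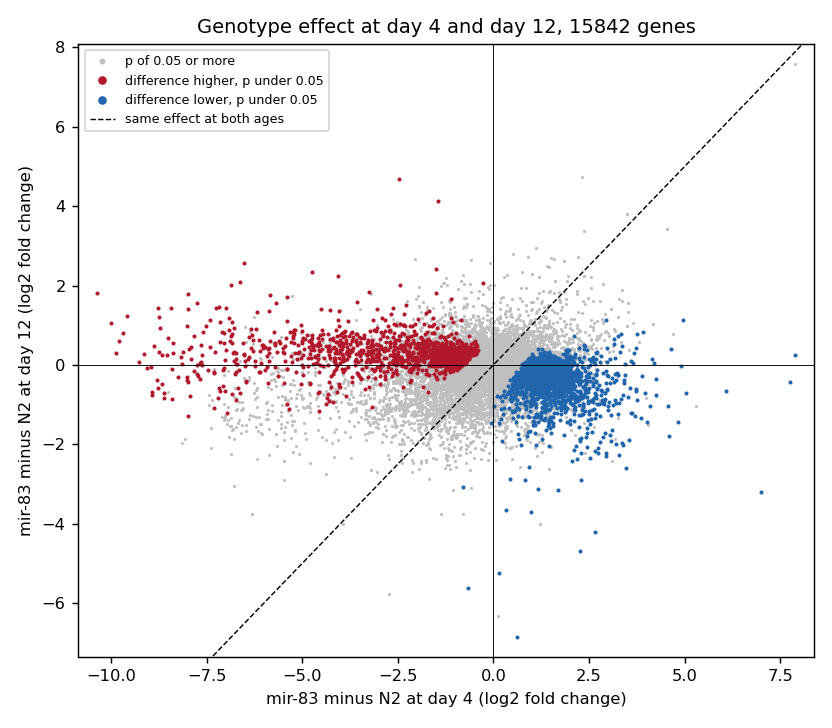
Each point is 1 of 15842 genes, with the log2 fold change of mir-83 against N2 at day 4 on the horizontal axis and at day 12 on the vertical axis. Red and blue points have an unadjusted p under 0.05 for a positive or negative difference of differences, and the dashed line marks an equal effect at both ages. The cloud is wide along the day 4 axis (SD 1.59) and narrow along the day 12 axis (SD 0.62).

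The replicates share no library, so each gives its own measurement. In both replicates the difference of differences reached 2-fold in the positive direction for 1630 genes (10.3%) and in the negative direction for 1686 (10.6%). Across genes, which are not independent, the values of the replicates correlated with a Pearson r of 0.209 and a Spearman rho of 0.307, and 66.2% of genes had the same sign. The day 4 effects correlated at 0.666 between the replicates, and the day 12 effects at -0.412. The day 12 mutant libraries were unlike each other. Replicate 1 was closest to N2 day 12 replicate 1, at a correlation over genes of 0.975, and replicate 2 to N2 day 4 replicate 2, at 0.952.

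Leaving out either old mutant library changed the calls. When that of replicate 1 was left out, 298 genes were higher and 222 lower at an adjusted p under 0.05, and for replicate 2 the counts were 65 and 434. Leaving out young N2 of replicate 1 gave 5 and 15, and old N2 of replicate 1 gave 0 and 2. The unadjusted positive count became 872 and 721 when the young mutant of replicate 1 or of replicate 2 was left out, and 826 when young N2 of replicate 1 was. The unadjusted negative count became 976 and 981 when the young mutant of replicate 1 or of replicate 2 was left out. The labels of replicate 1 also carry 1 run code for day 4 and another for day 12, each shared by both strains.

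A large positive group was the F-box genes, which encode proteins that choose targets for ubiquitin ligases and which are very numerous in this worm. Of 282 F-box genes tested, 118 had a positive and 0 a negative difference of differences at an unadjusted p under 0.05, with a median of 1.96. The fbxb class gave the most of these, with 73 of 97 genes past that p and all 97 positive. Its median was 4.68, or 4.16 when the 22 genes without a read in some group are set at a floor of 3 reads over the group. In both replicates, 86 of the 97 reached 2-fold upward. The fbxc class followed with 23 of 42 and the fbxa class with 22 of 143, at medians of 2.93 and 1.1.

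The summed level of the 97 fbxb genes was 333 and 357 CPM in young N2, 32.6 and 42.9 in young mutants, 180 and 179 in old N2, and 134 and 401 in old mutants. The young mutant was the low group, and the 2 old mutant libraries lay on either side of old wild type. In the young mutant 43 and 31 of the 97 genes had no read, against at most 3 in any other library.

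fbxb-10 (WBGene00020362, chromosome II, 1817271 to 1818400 in WBcel235) measured 17.2 and 14.5 CPM in young N2, 0.362 and 0.562 in young mutants, 2.41 and 4.45 in old N2, and 2.26 and 10.6 in old mutants. Its level was lower in old than in young wild type and higher in old than in young mutants, and only the day 12 groups overlapped. The difference of differences was 5.98 ± 1.00 (SE, n = 2 per group, edgeR adjusted p = 0.0584). fbxb-91 and fbxc-40 gave 5.59 ± 1.00 and 5.35 ± 0.85, both at the same adjusted p.

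fbxb-22 had 0 reads in both mir-83 day 4 libraries, against 29 and 68 in young N2, 15 and 13 in old N2, and 27 and 58 in old mutants, so no fold is given for it. Of the 97 fbxb genes, 57 lie on chromosome II and 15 on chromosome V, and 41 and 12 of these were past the unadjusted p. Members of such families are similar in sequence, and reads shared between copies cannot be told apart here. The skr genes, which encode the Skp1-related partners of F-box proteins in the same ligases, had 10 of 19 positive and 0 negative at that p, with a median of 1.63. skr-10 stood at 32.5 and 24.6 CPM in young N2, 1.67 and 1.69 in young mutants, 10.6 and 9.87 in old N2, and 7.68 and 24.5 in old mutants. It gave 4.68 ± 0.83 (adjusted p = 0.0584).

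Counts for these classes moved with the libraries. The F-box count became 69 when young N2 of replicate 1 was left out and 72 when the young mutant of replicate 2 was. The fbxb count ranged from 52 to 73 over the 8 libraries left out in turn. That of fbxc became 8 without young N2 of replicate 1, 10 without the young mutant of replicate 2, 15 without either old N2 library and 14 without the old mutant of replicate 2. The fbxa count became 9 and 10 without young N2 of replicate 1 and of replicate 2, 9 and 11 without old N2 of replicate 1 and of replicate 2, and 7 without the young mutant of replicate 2. The fbxc median was 1.58 and the skr median 0.70 without the old mutant of replicate 2, and the skr median was 0.95 without young N2 of replicate 1. The skr count became 6 without young N2 of replicate 1, without the young mutant of replicate 2 or without the old mutant of replicate 2.

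Genes first switched on in the early embryo were also positive. The list of early embryo markers holds 41 tested genes, 28 of them sdz genes, which depend on the maternal factor SKN-1 when the zygotic genome starts to be read. Of the 41, 22 had a positive and 0 a negative difference of differences at an unadjusted p under 0.05. The median was 4.07, or 3.29 with genes lacking reads at the floor, and the count ran from 17 to 26 over the libraries left out. In both replicates, 25 reached 2-fold upward.

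Their summed level was 518 and 631 CPM in young N2, 238 and 224 in young mutants, 181 and 435 in old N2, and 165 and 777 in old mutants. Replicate 2 was above replicate 1 at both day 12 groups. In mir-83 day 4, 15 and 6 of the 41 had no read, against at most 1 elsewhere. sdz-28 (WBGene00020073, chromosome II, 2131070 to 2132475) stood at 14.5 and 14.9 CPM in young N2, 0.217 and 0.562 in young mutants, 6.21 and 7.85 in old N2, and 3.56 and 25.9 in old mutants. The young mutant lay below every other library, and the difference of differences was 6.10 ± 1.1 (SE, n = 2 per group, edgeR adjusted p = 0.0584). sdz-33 gave 5.26 ± 1.01 (adjusted p = 0.064).

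Genes of oocytes and the eggshell were mostly negative, with 13 of 29 below 0 and 0 above at an unadjusted p under 0.05 and a median of -1.01. Their sums were 16510 and 15969 CPM in young N2, 44249 and 46418 in young mutants, 18337 and 11934 in old N2, and 14963 and 16816 in old mutants. The young mutant held the most of these transcripts, while its early embryo sum lay below both young N2 libraries and between those of the old worms, and no marker of oocytes was at 0 in any library. The part of oocyte and embryo content in the F-box and sdz values was not tested. The oocyte median was -0.52 without old N2 of replicate 1. The oocyte count became 4 without the young mutant of replicate 2, 6 without old N2 of replicate 1 and 7 without young N2 of replicate 1.

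**Figure D2:**
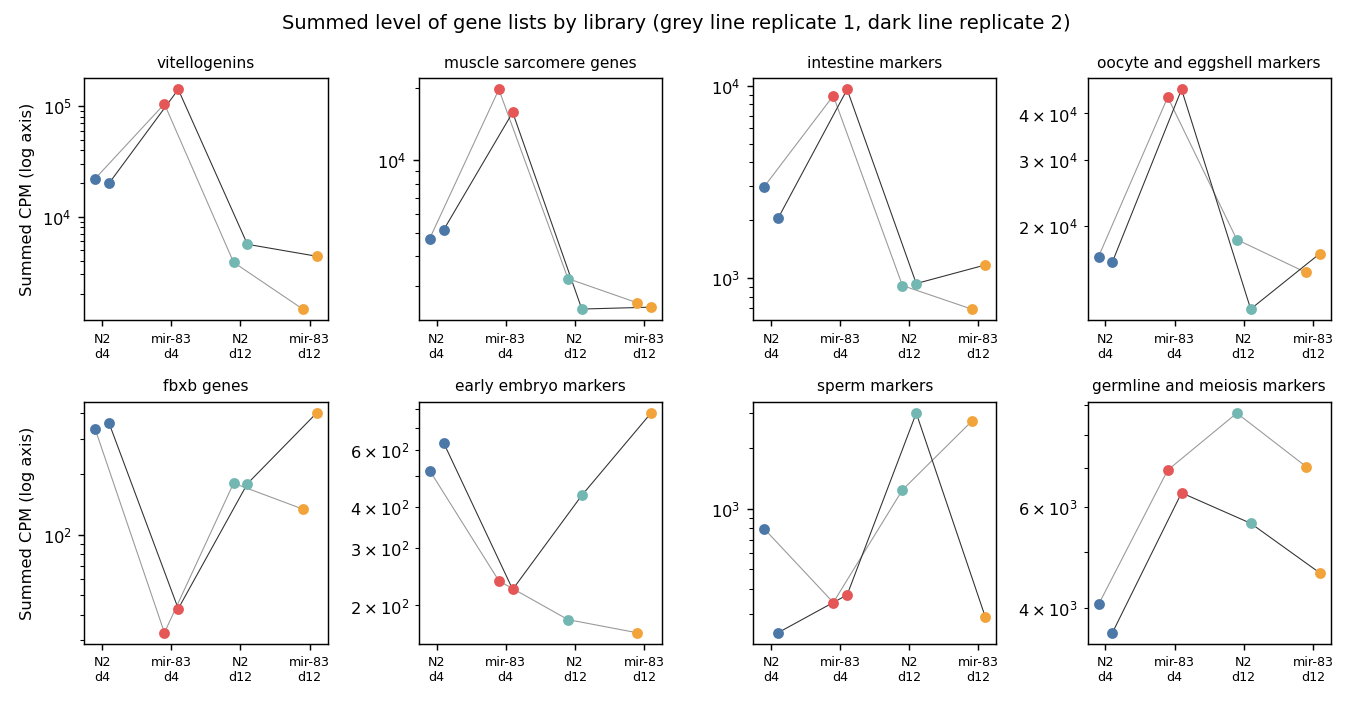
Summed TMM-scaled CPM of 8 gene groups in each of the 8 libraries, on a log axis, with a line joining the libraries of each replicate. The mir-83 day 4 libraries are highest for vitellogenins, muscle, intestine and oocyte genes and lowest for fbxb genes, while the lines for sperm markers cross.

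The hsp-16 genes, small heat shock proteins induced by heat and other protein-damaging stress, were positive. Of 14 small heat shock genes, 6 were positive at an unadjusted p under 0.05 and all 6 were hsp-16 genes. The count stayed at 6 with each library left out in turn. hsp-16.41 (WBGene00002018, chromosome V, 1805178 to 1805875) stood at 32.3 and 76.7 CPM in young N2, 0.29 and 1.03 in young mutants, 56 and 23.7 in old N2, and 67.9 and 32.8 in old mutants. The young mutant was at 1.03 CPM or less and every other library at 23.7 or more. The difference of differences was 6.62 ± 1.05 (SE, n = 2 per group, edgeR adjusted p = 0.0584), with 6.80 and 6.60 in the replicates.

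hsp-16.2, its neighbour, gave 5.65 ± 0.95, and the copies named hsp-16.48, which may share reads, gave 4.75 ± 0.67 and 4.69 ± 0.65. The other 2 small heat shock genes past that p were negative. One was sip-1, a small heat shock protein of oocytes and embryos, at -1.40 (unadjusted p = 0.00725). Of 15 large chaperone genes, 3 were positive and 4 negative. No large chaperone was positive when young N2 of replicate 2, the young mutant of replicate 1, old N2 of replicate 2 or the old mutant of replicate 1 was left out, and 2 were negative without the young mutant of replicate 2. hsp-1, the main cytosolic Hsp70, was at -2.15 ± 0.39 (adjusted p = 0.0584). hsp-6, the mitochondrial Hsp70, gave -1.56 ± 0.45 (adjusted p = 0.127).

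Several single genes were likewise lowest in the young mutant. zip-8, a bZIP transcription factor, stood at 16 and 9.82 CPM in young N2, 0.362 and 0.422 in young mutants, 28.5 and 15.5 in old N2, and 16.9 and 18.1 in old mutants. It gave 4.71 ± 0.70 (adjusted p = 0.0549). clec-266, a C-type lectin gene on chromosome X, stood at 192 and 123 CPM in young N2, 8.62 and 7.12 in young mutants, 371 and 193 in old N2, and 201 and 442 in old mutants. Its value was 4.57 ± 0.68 (adjusted p = 0.0549), with the young mutant far below every other library.

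wrt-10, a hedgehog-related gene, gave 3.98 ± 0.73 (adjusted p = 0.0584), and the cuticle collagen dpy-14 gave 3.40 ± 0.72 (adjusted p = 0.0734). Both families went mostly the other way. At an unadjusted p under 0.05, 2 of 65 hedgehog-related and patched-related genes were positive and 13 negative. Their median was -0.66, turned to 0.24 with plain library sizes and ran from -1.17 to -0.50 over the libraries left out. The negative count also moved when single libraries were left out. Of 147 cuticle collagens, 4 were positive and 27 negative at that p. epg-2, an adaptor that delivers germ granule aggregates to autophagy in embryos, gave 3.76 ± 0.71 (adjusted p = 0.0606). Its level was 79 and 74.5 CPM in young N2, 7.03 and 6.74 in young mutants, 62.7 and 52.2 in old N2, and 33.3 and 116 in old mutants. atg-16.2, which takes part in forming the autophagosome, gave 1.72 ± 0.44 (adjusted p = 0.101). Autophagy genes as a group were split. Of 31 autophagy and lysosome regulators, 7 were positive and 6 negative at an unadjusted p under 0.05. Both counts moved when single libraries were left out. The median was -0.16, turned to 0.72 with plain library sizes and ran from -0.25 to 0.07 over the libraries left out.

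**Figure D3:**
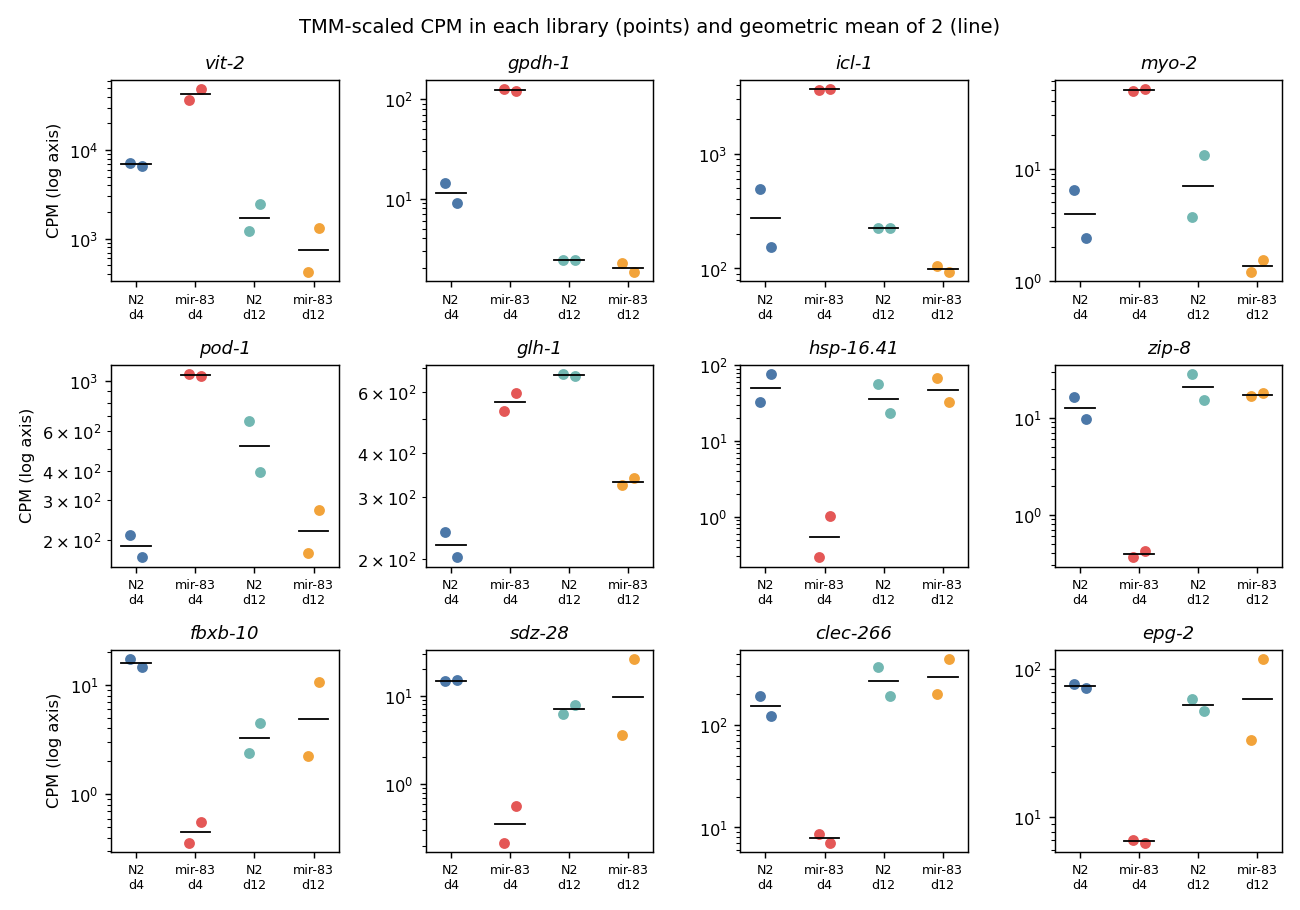
TMM-scaled CPM of 12 genes in every library on a log axis, with points for replicates 1 and 2 and a line at their geometric mean. The mir-83 day 4 libraries are the highest of the 8 for vit-2, gpdh-1, icl-1, myo-2 and pod-1 and the lowest for hsp-16.41, zip-8, fbxb-10, sdz-28, clec-266 and epg-2, while glh-1 is highest in N2 day 12.

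Yolk protein genes were negative. The vitellogenins encode the lipoproteins that carry yolk from the intestine to oocytes, and all 6 had a negative difference of differences at an unadjusted p under 0.05, with each library left out in turn as well. The median was -3.56, and the replicates gave medians of -3.69 and -3.72. Summed levels were 22179 and 20113 CPM in young N2, 105099 and 142312 in young mutants, 3860 and 5622 in old N2, and 1456 and 4383 in old mutants. The level was highest in the young mutant and lowest in old worms. At day 12 the mutant lay below N2 within each replicate, while the strains overlapped across replicates.

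vit-2 (WBGene00006926, chromosome X, 5101042 to 5106169) stood at 7079 and 6687 CPM in young N2, 37043 and 48799 in young mutants, 1212 and 2466 in old N2, and 419 and 1334 in old mutants. Its day 12 minus day 4 difference was -2.55 and -1.44 in N2 and -6.47 and -5.19 in the mutant. The difference of differences was -3.72 ± 0.61 (SE, n = 2 per group, edgeR adjusted p = 0.0584). vit-6, the only one of the 6 on an autosome, gave -3.54 ± 0.54 (adjusted p = 0.0557), and vit-1 and vit-4 gave -3.58 ± 0.59 and -3.41 ± 0.69. vit-3 and vit-4 are near-identical and may share reads.

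Other intestinal genes were negative with the yolk genes. Of 21 intestine markers, 8 (38.1%) were negative and 0 positive at an unadjusted p under 0.05. The median was -0.73 and turned to 0.14 with plain library sizes. The median ran from -1.82 without young N2 of replicate 1 to -0.29 without the old mutant of replicate 1. Their sums were 2989 and 2045 CPM in young N2, 8868 and 9564 in young mutants, 918 and 940 in old N2, and 693 and 1174 in old mutants. The young mutant libraries were above all others, the day 12 groups overlapped and no marker was at 0 in any library. The part of intestinal content in the yolk and lysosome values was not tested.

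act-5, the actin of intestinal microvilli, stood at 109 and 89.5 CPM in young N2, 513 and 501 in young mutants, 29.8 and 62.7 in old N2, and 15.2 and 23.2 in old mutants. It was above wild type in the young mutant and below it in the old one, at -3.58 ± 0.50 (adjusted p = 0.0549). ifc-2, an intermediate filament protein of the intestine, gave -2.93 ± 0.40, and asp-1, a lysosomal aspartyl protease there, gave -3.06 ± 0.51. Of 43 genes for lysosomal proteases and the V-ATPase, the proton pump of lysosomes, 16 were negative and 0 positive, with a median of -0.81 that turned to 0.06 with plain library sizes and was -1.34 without the old mutant of replicate 2. cpr-5, a cathepsin B-like protease, gave -4.96 ± 0.85, and vha-12, a V-ATPase subunit, -2.41 ± 0.38 (both at an adjusted p of 0.0584).

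Genes that make or move small organic osmolytes, with which worms balance salt in their surroundings, gave some of the smallest p-values. Of 12 such genes, 8 were negative and 0 positive at an unadjusted p under 0.05, with a median of -2.22. gpdh-1 (WBGene00009824, chromosome I, 14075837 to 14078211) makes the glycerol precursor glycerol-3-phosphate. It stood at 14.3 and 9.03 CPM in young N2, 127 and 121 in young mutants, 2.44 and 2.4 in old N2, and 2.26 and 1.82 in old mutants.

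The old strains were near each other and the young ones far apart for gpdh-1, at -3.69 ± 0.46 (SE, n = 2 per group, edgeR adjusted p = 0.0549). hmit-1.1, a myo-inositol transporter, gave -3.43 ± 0.44, and snf-3, a betaine transporter, -2.82 ± 0.41, both at the same adjusted p. osm-11, a secreted protein whose loss turns on the osmotic response, gave -3.43 ± 0.58 (adjusted p = 0.0584).

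Enzymes of fat and acetate use were also negative. icl-1, the bifunctional enzyme of the glyoxylate cycle, stood at 491 and 155 CPM in young N2, 3581 and 3665 in young mutants, 224 and 225 in old N2, and 105 and 92.6 in old mutants. The mutant was above wild type when young and below it when old, at -4.81 ± 0.63 (adjusted p = 0.0549). Of 48 genes for lipases and beta-oxidation, 14 were negative and 0 positive at an unadjusted p under 0.05, and 19 were negative and 6 positive without the old mutant of replicate 1. acdh-10 and acdh-7, acyl-CoA dehydrogenases, gave -2.28 ± 0.33 (adjusted p = 0.0549) and -2.77 ± 0.48 (adjusted p = 0.0584).

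daf-22, which completes the shortening of ascaroside side chains, gave -2.74 ± 0.58 (adjusted p = 0.0734). The negative share of the lipase and beta-oxidation list was 29.2%, against 10.1% of all genes and 25.7% of the most abundant quintile. The median of the list was -0.62 and turned to 0.25 with plain library sizes. It ran from -1.29 without young N2 of replicate 1 to -0.35 without the young mutant of replicate 2. fasn-1 and pod-2, which encode fatty acid synthase and acetyl-CoA carboxylase, gave -2.81 ± 0.53 (adjusted p = 0.061) and -2.43 ± 0.45 (adjusted p = 0.0584). They belong to a list of 21 fatty acid synthesis, desaturase and elongase genes of which 6 were negative and 0 positive, or 3 negative without young N2 of replicate 2. The median of that list was 0.21, and it turned to -0.61 without the old mutant of replicate 2, to -0.60 without young N2 of replicate 1, to -0.05 without old N2 of replicate 1 and to -0.03 with a length offset.

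Muscle genes were negative. Of 40 genes of the sarcomere, 24 were negative and 0 positive at an unadjusted p under 0.05, with a median of -1.85, and 25 reached 2-fold downward in both replicates. The count was 17 to 28 over the libraries left out and 12 with plain library sizes. Summed levels were 4736 and 5137 CPM in young N2, 19716 and 15828 in young mutants, 3229 and 2414 in old N2, and 2564 and 2458 in old mutants. No gene of the list was at 0 in any library, the young mutant was far above the rest and the day 12 groups overlapped.

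myo-2, a myosin heavy chain of the pharynx, stood at 6.43 and 2.39 CPM in young N2, 48.6 and 51.2 in young mutants, 3.72 and 13.3 in old N2, and 1.19 and 1.53 in old mutants. It gave -6.05 ± 1.04 and myo-1, its pharyngeal partner, -5.55 ± 0.92. lev-11, the tropomyosin gene, gave -2.26 ± 0.38, and act-3, an actin that shares long stretches with its neighbours, -2.13 ± 0.37. All 4 had an adjusted p of 0.0584. lev-11 stood at 78.7 and 83.7 CPM in old N2 against 72.6 and 97.7 in old mutants, so that its difference between the strains was a day 4 difference, while myo-2 was also lower in the old mutant than in old wild type.

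Basement membrane genes, including the type IV collagens emb-9 and let-2, had 5 of 20 negative and 0 positive, but 4 negative and 6 positive without the old mutant of replicate 1. The list had no stable direction, since its median of -0.34 turned to 0.11 without the young mutant of replicate 1, to 0.30 with a length offset and to 0.52 with plain library sizes. let-2 gave -3.69 ± 0.89 (adjusted p = 0.0901) and emb-9 -3.15 ± 0.92 (adjusted p = 0.128), or -4.80 for emb-9 without the old mutant of replicate 2. emb-9 stood at 36.5 and 97.9 CPM in old N2 and at 8.97 and 96 in old mutants, so that the strains differed at that age in replicate 1 alone. Of 147 cuticle collagens, 27 (18.4%) were negative and 4 (2.72%) positive, with a median of -0.87 that became -0.01 with plain library sizes. The negative share was 25% for the basement membrane list, against 10.1% of all genes and 25.7% of the most abundant quintile. col-20 gave -4.0 ± 0.88 (adjusted p = 0.0794). The negative collagen count was 9 without the young mutant of replicate 1, 16 without either young N2 library, 15 without old N2 of replicate 2 and 48 without the old mutant of replicate 2. The collagen median was -0.44 without old N2 of replicate 1 and -1.60 without the old mutant of replicate 2.

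Ribosomal protein genes of the cytosol were negative as a group with small values. Of 79, 48 were negative and 1 positive at an unadjusted p under 0.05, with a median of -1.1 that became -0.24 with plain library sizes, when 10 were negative. The negative count was 31 without young N2 of replicate 1, and 31 and 30 without the young mutant of replicate 1 and of replicate 2. rpl-4 stood at 2201 and 3921 CPM in young N2, 12342 and 15355 in young mutants, 2375 and 2755 in old N2, and 2210 and 2215 in old mutants. It gave -2.41 ± 0.42, rla-0 gave -2.21 ± 0.41 and rpl-18 gave -2.12 ± 0.39, all at an adjusted p of 0.0584.

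Of 69 mitochondrial ribosomal protein genes, 2 were positive and 1 negative, with a median of 0.14. The old mutants moved this list most, to 12 positive and a median of 0.44 without that of replicate 2 and to 4 negative and a median of -0.25 without that of replicate 1. Nuclear genes of the respiratory chain had 26 of 67 negative and 0 positive, with a median of -0.65 that turned to 0.22 with plain library sizes, when 6 were negative and 19 positive. Their negative count was 16 without the young mutant of replicate 2 and 15 without old N2 of replicate 1. For ATP synthase, atp-1 and atp-2 gave -2.38 ± 0.40 and -2.17 ± 0.39, and the complex I gene nuo-5 gave -2.31 ± 0.41 (each at an adjusted p of 0.0584). rpn-1, a proteasome base subunit, gave -2.30 ± 0.40 at the same adjusted p, the lowest value among 33 proteasome subunit genes. Of the 33, 9 (27.3%) were negative and 0 positive at an unadjusted p under 0.05. The negative share was near the 25.7% of the most abundant quintile of genes. The median of the 33 was -0.49 and turned to 0.38 with plain library sizes, when 1 was negative and 7 positive. Over the libraries left out the median ran from -0.81 to -0.23, and the negative count moved as well.

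**Figure D4:**
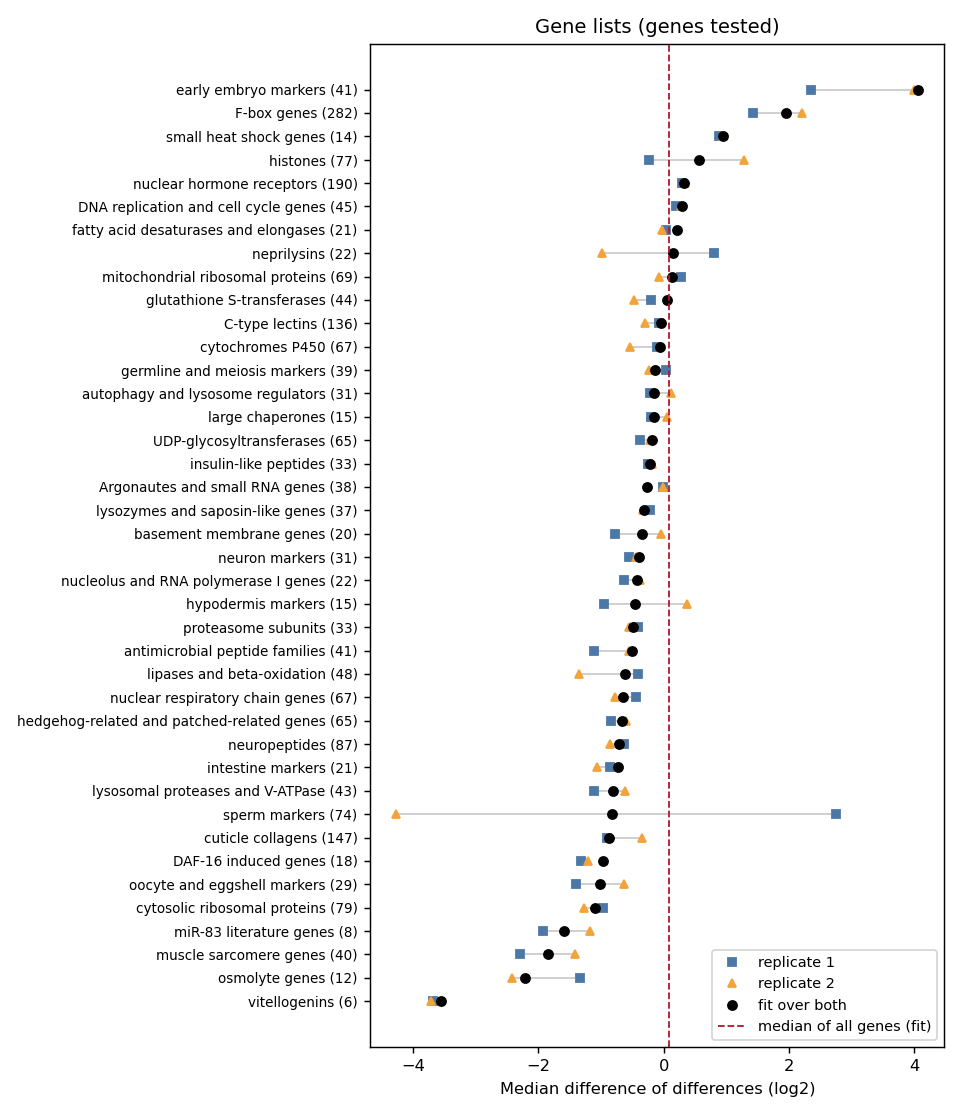
Median difference of differences of each gene list on the log2 scale, from the fit over both replicates (black circles) and within replicate 1 (squares) and replicate 2 (triangles), with the number of genes tested in brackets. The dashed line marks the median of all genes, 0.08. Vitellogenins (-3.56) and early embryo markers (4.07) are at the ends, and the replicates of the sperm markers lie far apart on opposite sides of 0.

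Some negative genes were crossings, in which age went with opposite differences in the strains. In both replicates, 19 genes were at least 2-fold higher with age in N2 and 2-fold lower in the mutant, and 72 had the reverse. All 19 and all 72 were among the genes past the unadjusted p. That is close to fixed by the definition, since opposite differences of this size give a large difference of differences in both replicates. The commoner shapes were a difference under 2-fold in N2 with a level at least 2-fold lower at day 12 in the mutant, in 478 of the 1597 negative genes (29.9%, against 4.53% of all genes), and under 2-fold in N2 with a level at least 2-fold higher in the mutant, in 488 of the 1314 positive genes (37.1%, against 4.83%). A further 125 of the negative genes were at least 2-fold higher with age in N2 and differed by under 2-fold in the mutant. The genes were selected on the difference of differences, so a part of each excess over all genes follows from the selection.

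pod-1, a coronin-like actin regulator needed for polarity in the embryo, was such a crossing. It stood at 210 and 167 CPM in young N2, 1068 and 1044 in young mutants, 666 and 398 in old N2, and 174 and 271 in old mutants. Its day 12 minus day 4 difference was 1.66 and 1.25 in N2 and -2.62 and -1.95 in the mutant, and the difference of differences was -3.72 ± 0.50 (SE, n = 2 per group, edgeR adjusted p = 0.0549). The mutant was thus above wild type at day 4 and below it at day 12 in both replicates. maph-1.2 and maph-1.3, which encode relatives of microtubule-associated protein 1, gave -3.51 ± 0.44 and -3.30 ± 0.42, and zyg-8, a doublecortin-related kinase of the mitotic spindle, -2.81 ± 0.40, all at the same adjusted p.

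Named genes of germ granules and of the nucleolus were higher at day 12 than at day 4 in N2 and lower in the mutant. glh-1, a germline helicase, stood at 239 and 202 CPM in young N2, 529 and 596 in young mutants, 674 and 667 in old N2, and 325 and 340 in old mutants. No groups overlapped, and the value was -2.36 ± 0.34 (adjusted p = 0.0549). glh-2 gave -2.41 ± 0.44 (adjusted p = 0.0584). Of 39 germline and meiosis markers, 10 (25.6%) were negative and 1 (2.56%) positive, with a median of -0.13. This list had no stable direction either. Without the old mutant of replicate 2, 10 were negative and 8 positive and the median was 0.40, and 14 were negative with a median of -0.51 without that of replicate 1. With plain library sizes the median was 0.76.

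rpoa-1, the largest subunit of RNA polymerase I, stood at 27.3 and 20.2 CPM in young N2, 55.6 and 56 in young mutants, 121 and 72.9 in old N2, and 39.6 and 41.6 in old mutants. Its day 12 minus day 4 difference was 2.14 and 1.85 in N2 and -0.49 and -0.43 in the mutant, giving -2.47 ± 0.42 (adjusted p = 0.0584). fib-1, the nucleolar methyltransferase fibrillarin, gave -2.17 ± 0.41 (adjusted p = 0.0606). ncl-1, a repressor of nucleolar size, gave -2.52 ± 0.36 (adjusted p = 0.0549). The nucleolus and RNA polymerase I list had 8 of 22 negative and 0 positive, with a median of -0.42 that turned to 0.44 with plain library sizes. The negative count was 5 without young N2 of replicate 2, 5 without the young mutant of replicate 1 and 4 without old N2 of replicate 1.

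Regulators supplied by the mother were among the negative genes. lin-41, which controls oocyte maturation, stood at 80.8 and 44.6 CPM in young N2, 202 and 149 in young mutants, 320 and 134 in old N2, and 146 and 113 in old mutants, and gave -2.24 ± 0.40 (adjusted p = 0.0584). mex-1, a zinc finger protein of the early germ lineage, gave -2.41 ± 0.52 (adjusted p = 0.0756). F22G12.5 had day 12 minus day 4 differences of 2.31 and 1.74 in N2 and -1.01 and -0.97 in the mutant, at -3.05 ± 0.43 (adjusted p = 0.0549).

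In the opposite direction, sdz-1 stood at 2.39 and 2.83 CPM in young N2, 0.145 and 0.187 in young mutants, 0.411 and 0.645 in old N2, and 0.566 and 2.54 in old mutants. It was lower with age in N2 and higher in the mutant, at 5.39 ± 1.17 (adjusted p = 0.0775). T20D4.10 gave 6.03 ± 1.01 (adjusted p = 0.0584), and its level was higher in replicate 2 than in replicate 1 in each group.

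Some of the smallest p-values belonged to transporter and saposin-like genes. The gene pair named mct-2, whose reads may be shared, gave -3.14 ± 0.33 and -3.12 ± 0.35 (adjusted p = 0.0549). spp-9, a saposin-like gene, stood at 97.5 and 139 CPM in young N2, 1081 and 1165 in young mutants, 104 and 243 in old N2, and 77.2 and 89.9 in old mutants, at -4.25 ± 0.46 (adjusted p = 0.0549). nep-17, a neprilysin peptidase, gave -4.16 ± 0.51, and ltah-1.2, -4.33 ± 0.62, at the same adjusted p. spp-12, another saposin-like gene, gave -5.21 ± 0.97 (adjusted p = 0.0593), or -3.35 without old N2 of replicate 2.

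Among genes with a mean of at least 100 CPM, Y39B6A.1 had one of the widest contrasts. It reached that mean through the young mutant libraries alone, so a part of the contrast follows from the selection. It stood at 18.5 and 17.3 CPM in young N2, 391 and 489 in young mutants, 4.98 and 4.65 in old N2, and 0.458 and 2.6 in old mutants. The young mutant was far above and the old mutant below wild type, at -6.37 ± 0.80 (adjusted p = 0.0549). F28B4.3 gave -3.26 ± 0.46 and noa-1 gave -3.09 ± 0.39 at the same adjusted p.

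At an unadjusted p under 0.05, negative shares among neuronal genes were near or a little above that of all genes. Of 31 neuron markers, 4 (12.9%) were negative and 0 positive at that p, against 10.1% of all genes negative and 8.29% positive. Their median was -0.39 and turned to 0.49 with plain library sizes. Of 87 neuropeptide genes, 13 (14.9%) were negative and 0 positive, with a median of -0.71 that turned to 0.15 with plain library sizes. The count was 2 without young N2 of replicate 2, 3 and 6 without the young mutant of replicate 1 and of replicate 2, and 4 without old N2 of replicate 2, and 3 were positive without the old mutant of replicate 1. Over the libraries left out the median ran from -1.23 without the old mutant of replicate 2 to -0.27 without old N2 of replicate 2. In both replicates, 22 (25.3%) of the 87 reached 2-fold downward and 4 (4.6%) upward, against 10.6% and 10.3% of all genes. egl-3 and egl-21, a convertase and a carboxypeptidase that cut neuropeptide precursors, gave -3.44 ± 0.60 and -2.36 ± 0.37 (adjusted p = 0.0584).

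Genes already linked to miR-83 or examined with it were taken from the literature as a list of 8. Of these, 4 were negative and 0 positive at an unadjusted p under 0.05, namely daf-16, spp-9, col-178 and peb-1, and the list was chosen with earlier results of these data known. daf-16, the FOXO transcription factor of the insulin pathway, stood at 78.8 and 45.9 CPM in young N2, 221 and 121 in young mutants, 186 and 98.1 in old N2, and 137 and 75.4 in old mutants. In each replicate the mutant was above N2 at day 4 and below it at day 12. The difference of differences was -1.86 ± 0.31 (SE, n = 2 per group, edgeR adjusted p = 0.0584).

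The collagen gene col-178 gave -3.50 ± 0.99 (adjusted p = 0.122) and peb-1, a DNA-binding protein of the pharynx, -1.97 ± 0.83 (adjusted p = 0.259). cup-5, a lysosomal calcium channel, stood at 56.2 and 76.6 CPM in young N2, 82.7 and 93.2 in young mutants, 95 and 71.4 in old N2, and 93.5 and 92.9 in old mutants. Its value was -0.25 ± 0.38 (adjusted p = 0.8) and had the opposite sign with plain library sizes. cdc-42, a small GTPase, gave -0.75 ± 0.34 (adjusted p = 0.291) and was also of opposite sign with plain library sizes.

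pat-3, the beta integrin, gave 0.01 ± 0.45 (adjusted p = 0.997), with -0.76 and 0.79 in the replicates. din-1 gave -1.33 ± 0.88 (adjusted p = 0.477), with -3.30 and 0.31. hlh-30, the worm counterpart of the lysosome regulator TFEB, gave -2.93 ± 0.70 (adjusted p = 0.0889), with a level of 10 and 23.1 CPM in old mutants and 39.1 and 22.1 in old N2.

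For sperm genes the replicates had opposite signs. Of 74 sperm markers, 63 were at least 2-fold positive in replicate 1 and at least 2-fold negative in replicate 2, with medians of 2.75 and -4.27. Over all genes, 1198 (7.56%) had that pattern and 204 (1.29%) the reverse. All 29 msp genes tested, which encode the major sperm proteins, were among the former. The same counts were 1203 and 201 with RLE size factors and 1188 and 182 with plain library sizes.

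Summed sperm marker levels were 796 and 242 CPM in young N2, 342 and 373 in young mutants, 1241 and 2990 in old N2, and 2719 and 289 in old mutants. The level was highest in old N2 of replicate 2 and the old mutant of replicate 1, and within the range of the young worms in the old mutant of replicate 2. At most 3 of the 74 were at 0 in any library. The part of sperm content in the unlike day 12 mutant libraries was not tested.

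**Figure D5:**
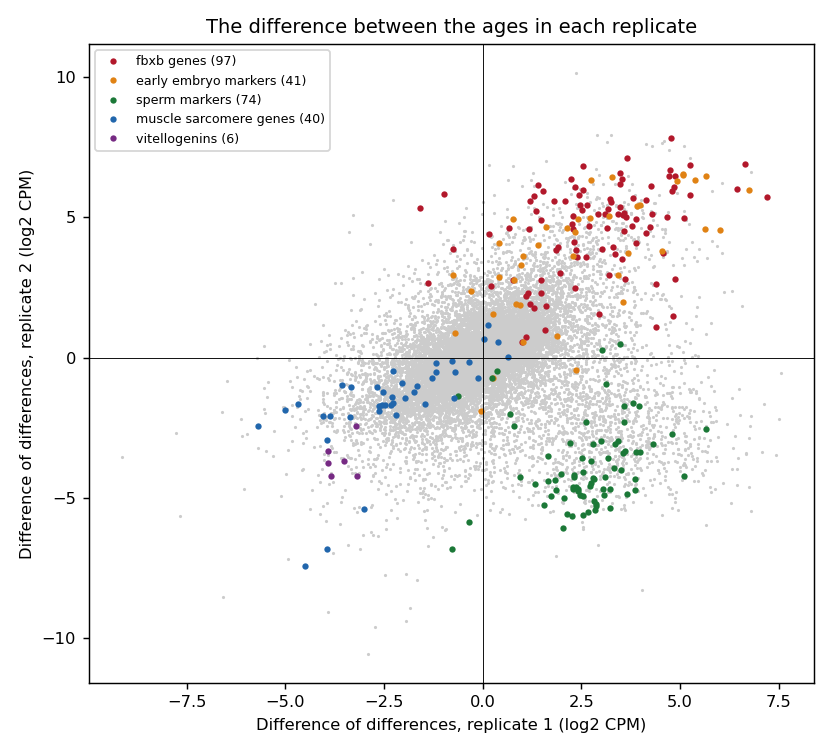
Difference of differences of each gene in replicate 1 (horizontal axis) and replicate 2 (vertical axis), both in log2 CPM, with 5 gene groups coloured. Most fbxb genes and early embryo markers are positive on both axes and vitellogenins negative on both, while 63 of the 74 sperm markers are at least 2-fold positive in replicate 1 and negative in replicate 2.

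Ranked by median over 146 gene classes with at least 10 genes tested, fbxb (4.68), sdz (4.22), fbxc (2.93), sri (1.97) and tbx (1.91) were the highest. The chemoreceptor class sri and the T-box class tbx rested on few reads. With genes lacking reads at the floor, their medians were 0.39 and 1.13, and 0 of 14 and 2 of 13 had a positive value at an unadjusted p under 0.05. At that p, 1 sri gene was negative. The summed sri level was highest in the young mutants, at 25.7 and 26 CPM against 14 and 11.1 in young N2. The lowest were asp (-1.54), lec (-1.49), rpl (-1.28), ptr (-1.19) and alh (-1.09), which hold aspartyl proteases, galectins, large-subunit ribosomal proteins, patched-related proteins and aldehyde dehydrogenases. Among these, 5 of 11 asp, 7 of 12 lec, 27 of 45 rpl, 7 of 23 ptr and 5 of 12 alh genes were negative at that p. The lec count was 4 without young N2 of replicate 2, 4 without the young mutant of replicate 1 and 3 without old N2 of replicate 2. The ptr count was 3 without young N2 of replicate 2 and 4 without the young mutant of replicate 1. That of alh was 3 without the young mutant of replicate 2, and that of asp 8 without the old mutant of replicate 2. The median of asp was -0.94 and -2.59 without the old mutant of replicate 1 and of replicate 2, that of ptr -0.72 without the young mutant of replicate 1, and that of tbx 0.89 and 1.18 without replicate 2 of old N2 and of the old mutant.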

How the data were processed

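RNA from whole worms was sequenced in 8 libraries, 2 in each of 4 groups. The deposited files hold unnormalized counts of reads for each transcript, 1 sheet per replicate number. Bowtie2, edgeR and ce11 are named in the submitters' processing notes; the labels do not state the trimming, the counting or the handling of isoforms and strand. The sheets list different annotations (30443 and 29023 transcripts). Transcripts were matched to WBcel235 genes by sequence name in replicate 1, and by accession (24013) or name (4732) in replicate 2. Unmatched transcripts held 0.093% and 0.247% of reads. Counts were summed per gene, and the 18286 genes of both sheets kept. The labels do not tie replicates to separate cultures, so a p-value here reflects the spread between libraries that may differ only technically.

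filterByExpr left 15842 genes. edgeR 4.0.16 (glmQLFit, glmQLFTest, two-sided) was fitted to all 8 libraries with TMM factors, 1 mean per group and the replicate number as a block, with 3 residual degrees of freedom and a common biological coefficient of variation of 0.429. The block was used because the sheets differ. The departures from the group mean of libraries with 1 number in common correlated at 0.119 to 0.416 across genes. Standard errors come from the F statistic. Values within a replicate use log2 CPM with a prior count of 2. Genes named are the 15 of lowest p in each direction with at least 10 reads on average and the same sign in both replicates, up to 4 per list by p, 5 per direction with opposite effects at the ages, 10 with at least 100 CPM, all 8 literature genes and the 5 classes of highest and lowest median; the text draws on these. The genes, lists and rules were chosen with earlier results of these data known. Alternatives were RLE and plain library sizes, no filter, no or an age-wise block, a length offset, each library left out, DESeq2 1.42.0, other thresholds and other prior counts (0.5 and 5). R 4.3.3 and Python 3.11.15 were used. mir-83 itself was not analysed here.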

Additional observations from a re-analysis of the deposited data

How the results depend on the processing

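The number of genes past the adjusted threshold depended on the setting. It was 12 higher and 22 lower with RLE size factors, 1636 and 108 with plain library sizes, 89 and 225 without a filter on low counts, 1 and 1 with a gene length offset, 594 and 731 with DESeq2, and 216 and 454 at an adjusted p under 0.10. Over the 8 libraries left out in turn it ran from 0 to 298 higher and from 0 to 434 lower. No gene passed without the replicate block or with a replicate block within age, where 1113 genes were higher and 1247 lower, and 1715 and 2069, at an unadjusted p under 0.05. Unadjusted counts ran from 721 to 1589 higher and from 976 to 1988 lower over the libraries left out, and were 4264 and 441 with plain library sizes. The median over all genes ran from -0.06 to 0.26 over the libraries left out and was 0.95 with plain library sizes. Genes 2-fold positive in both replicates numbered 4482, and 489 were negative, with plain library sizes, and at 4-fold the counts were 525 and 374. In fits with 1 library left out, the lone library is assumed to vary like the others.

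Among the genes examined by name, 3 changed sign. cdc-42, at -0.75 ± 0.34 as reported, gave 0.12 and cup-5 0.63 with plain library sizes, and cup-5 gave 0.09 with a length offset, 0.01 without N2 day 4 replicate 1 and 0.07 without replicate 1 of N2 day 12, the range over libraries left out being -0.54 to 0.07. pat-3 gave -0.02 with no replicate block, and -0.09, -0.04, -0.44 and -0.37 without replicate 2 of N2 day 4, mir-83 day 4, N2 day 12 and mir-83 day 12, in a range of -0.44 to 0.48. The other 82 kept their sign in all 15 alternative fits. The cause of these shifts was not tested. Genes under 1 CPM in the young mutant rest on few reads.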

Other observations

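The difference of differences varied with chromosome, length and level. Its median was -0.07 on chromosome X, with -0.35 and 0.17 in the replicates, and 0.06 to 0.14 on the autosomes. It was 0.29 in the quintile of genes with the shortest transcripts, with 0.38 and 0.07 in the replicates. In the quintile with the longest it was -0.38, with -0.60 and -0.20 in the replicates. There, 637 of 3167 genes were negative at an unadjusted p under 0.05. In the most abundant quintile, 815 of 3169 genes were negative and 245 positive, and in the least abundant quintile 55 were negative and 237 positive. The mean level that sets these quintiles includes the young mutants, so a part of this tilt can follow from the grouping. Across genes, the Spearman rho with mean level was -0.274 in replicate 1 and -0.0766 in replicate 2.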
